A study of Homo sapiens with 12 samples.

Results

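AP-1 (activator protein 1) is a transcription factor assembled as a dimer from the FOS family (FOS, FOSB, FOSL1 and FOSL2) and the JUN family (JUN, JUNB and JUND). All 7 genes were followed here, out of 20345 gene rows, in RNA-seq libraries of HGC-27, a human gastric cancer cell line. They were matched by Ensembl identifier, and 7 of 7 were found. FOSB had been selected on its values in untreated cells, as one of 4 rows that differed by more than 2-fold, at an adjusted p under 0.05, between libraries labelled TEAD4KO and WT libraries, and its 6 paralogs were added by name. That contrast is therefore described for the family without a test, and the tests rest on the other contrasts.

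Each of WT and TEAD4KO cells was sequenced with and without GLUP, in 3 libraries per condition, which makes 12 libraries in 4 groups. WT is HGC-27 with no edit named in the labels. The WT libraries carry no genotype label and were grouped by titles that begin with NC and by the description of the design. TEAD4KO is HGC-27 labelled as knocked out for TEAD4, the transcription factor at the end of the Hippo pathway that recruits YAP and TAZ to DNA. GLUP is a synthetic peptide made to bring TEAD4 molecules together, and the untreated cells received, by the study's methods, only the buffer in which the peptide was kept. The labels give neither dose nor time of GLUP. The study's results and methods name different times for its RNA-seq, both of hours and not minutes. Neither the labels nor the methods say whether the TEAD4KO cells come from 1 clone. The methods speak of biological replicates for RNA extraction without saying which libraries come from separate cultures, so the p-values measure the spread between these libraries, which may in part be technical.

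FOS and JUN genes are the textbook immediate early genes: growth factors, serum and stress induce them through MAP kinases within minutes, and their transcripts and proteins are short lived. FOS proteins do not readily pair with each other and bind DNA mainly with a JUN partner or another bZIP (basic leucine zipper) protein, whereas JUN proteins can also pair among themselves. JUN is a strong activator, JUNB and JUND are weaker ones that can restrain it, FOSL1 and FOSL2 lack the strong activation domain of FOS and FOSB, and the dimers bind the AP-1 site TGANTCA or the cAMP response element TGACGTCA. In many cell types AP-1 sites lie beside TEAD sites at enhancers.

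Values are FPKM (sequenced fragments of a gene relative to its transcript length and to the library's mapped fragments). Levels of different genes can thus be set side by side, but a bias by GC content or length can remain in them. Libraries of a group had Pearson's r from 0.986 to 0.996 across genes, and the sequencing depth is unknown. The TEAD4 transcript did not follow the label: its level was 22.9 to 25.8 FPKM in the 6 WT libraries and 26.0 to 30.1 FPKM in the 6 libraries labelled TEAD4KO. Transcript levels do not measure TEAD4 protein, so they do not tell whether the label holds. The direction of every genotype contrast below rests on that label. Untreated replicate 1 (-0.962) and GLUP replicate 16 (-5.26) of TEAD4KO lay beside the WT libraries (-16.2 to -3.71) on the first principal component, while the other 4 TEAD4KO libraries lay at 9.91 or above. The values of members that passed under GLUP, and some further results, are also given without those libraries. As to cell identity, of 5 epithelial markers EPCAM, KRT18 and KRT19 stayed below 0.3 FPKM, while KRT8 was at 3.78 to 9.13 FPKM and CDH1 at 2.04 to 3.68 FPKM. Of 4 mesenchymal markers VIM was at 1238 to 1704 FPKM, ZEB1 at 15.9 to 23.3 FPKM, FN1 at 3.85 to 9.15 FPKM and CDH2 at no more than 0.149 FPKM. The 6 fibroblast markers all had a mean of at least 1 FPKM and summed to 605 to 782 FPKM. They were led by COL3A1 (299.6 to 359 FPKM), COL1A1 (155 to 304 FPKM) and DCN (55.1 to 77.6 FPKM). LUM was at 48.6 to 64.5 FPKM, COL1A2 at 4.93 to 9.80 FPKM and PDGFRB at 0.820 to 1.27 FPKM. The other sums were at most 0.284 FPKM for the 6 gastric gland markers, 3 of them at 0 throughout, 2.94 FPKM for immune and 0.0439 FPKM for endothelial markers. The part of these levels in the results was not tested. In bulk RNA, fewer cells of a type and less RNA per cell cannot be told apart.

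The genes lie at, on GRCh37, chr14:75745529-75748933 (FOS, plus strand), chr19:45971253-45978437 (FOSB, plus), chr11:65659520-65668044 (FOSL1, minus), chr2:28615315-28640184 (FOSL2, plus), chr1:59242517-59249720 (JUN, minus), chr19:12902300-12904129 (JUNB, plus) and chr19:18390504-18392432 (JUND, minus). For JUNB and JUND the longest annotated transcript (1830 and 1929 bases) is as long as the gene, so these genes have no annotated intron there. RefSeq promoters were found for 6 of the 7 genes. The 250 bases before the start are shown for FOS, FOSB, JUNB and JUND, because these are the members that passed the test between genotypes under GLUP. Sequences are on the gene's own strand of GRCh38.p14, 5′ to 3′. Capitals mark TGACG, the core of the cAMP response element, or its complement CGTCA.
FOSB, chr19:45467746-45467995, plus strand: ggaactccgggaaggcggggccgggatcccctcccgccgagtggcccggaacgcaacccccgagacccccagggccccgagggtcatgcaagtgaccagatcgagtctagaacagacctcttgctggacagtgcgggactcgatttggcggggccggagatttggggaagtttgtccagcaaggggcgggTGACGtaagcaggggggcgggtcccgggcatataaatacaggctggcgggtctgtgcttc
FOS, chr14:75278578-75278827, plus strand: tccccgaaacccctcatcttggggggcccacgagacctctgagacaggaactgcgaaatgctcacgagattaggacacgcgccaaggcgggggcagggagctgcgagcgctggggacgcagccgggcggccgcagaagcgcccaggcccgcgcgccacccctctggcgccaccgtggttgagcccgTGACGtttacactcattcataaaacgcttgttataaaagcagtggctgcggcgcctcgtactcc
JUNB, chr19:12791236-12791485, plus strand: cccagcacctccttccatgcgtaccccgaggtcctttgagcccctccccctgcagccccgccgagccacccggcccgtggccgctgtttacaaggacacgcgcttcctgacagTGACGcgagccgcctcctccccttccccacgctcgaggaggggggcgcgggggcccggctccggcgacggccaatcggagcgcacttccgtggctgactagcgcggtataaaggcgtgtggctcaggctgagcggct
JUND, chr19:18281623-18281872, minus strand: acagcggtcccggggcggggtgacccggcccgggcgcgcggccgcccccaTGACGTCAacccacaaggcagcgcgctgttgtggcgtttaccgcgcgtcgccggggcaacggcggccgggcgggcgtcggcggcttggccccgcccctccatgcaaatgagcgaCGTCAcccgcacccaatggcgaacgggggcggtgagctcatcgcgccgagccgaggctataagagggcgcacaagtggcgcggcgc

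The core TGACG was present on either strand in 6 of 6 member promoters and in 21.2% of 35116 promoters of the same length. That share was not matched for GC content, which was 62% to 74.8% in the member promoters. This core was searched in addition to the motifs planned. In FOSB it began 60 bases before the start and in FOS 64 bases before it. In JUNB it began 137 bases before the start. JUND held the full palindrome TGACGTCA from position -200, counted from the start, in which the core and its complement overlap, and a further core on the other strand at 86 bases. The full palindrome was in 1 of 6 member promoters and in 1.65% of all promoters. Neither the AP-1 site TGANTCA (6.57% of all promoters), the TEAD motif GGAATG (11.9%) nor the serum response factor motif called the CArG box (1.16%) was found in any of the 6 windows. These matches describe letters within 250 bases and say nothing of factors bound there or farther away.

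The largest difference in the family was in FOSB, which encodes a FOS protein with a full activation domain and, by splicing, the shorter ΔFOSB. In untreated WT libraries FOSB was at 8.19, 6.03 and 6.41 FPKM, and in WT with GLUP at 9.77, 9.42 and 12.5 FPKM. The untreated TEAD4KO libraries had 1.90, 0.903 and 1.09 FPKM, and those with GLUP 1.92, 0.910 and 2.06 FPKM. At each treatment TEAD4KO lay below WT without overlap, which held for 7.47% of all rows tested untreated and 12.9% under GLUP. The untreated libraries are those that selected FOSB. The highest TEAD4KO value was 2.06 FPKM and the lowest WT value 6.03 FPKM. The highest FOSB value of each TEAD4KO group was in the library that lay nearest WT on the first principal component, untreated replicate 1 and GLUP replicate 16. The single row per gene does not separate full-length FOSB from ΔFOSB.

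FOS, the founding member, was at 32.9, 31.2 and 27.6 FPKM in untreated WT and at 43.5, 36.8 and 46.6 FPKM in WT with GLUP. The TEAD4KO libraries had 27.4, 23.8 and 20.1 FPKM of FOS when untreated, and 28.8, 21.8 and 24.9 FPKM under GLUP. TEAD4KO lay below WT at each treatment without overlap, though by far less than FOSB did, and the nearest pair of untreated libraries stood at 27.4 and 27.6 FPKM. The shares of all rows are those given for FOSB.

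JUNB, the most abundant member in every group, was at 44.4, 47.7 and 39.8 FPKM in untreated WT and at 48.9, 52.0 and 49.1 FPKM in WT with GLUP. The TEAD4KO libraries had 67.1, 71.3 and 67.9 FPKM of JUNB when untreated, and 75.0, 69.3 and 68.8 FPKM under GLUP. TEAD4KO lay above WT at each treatment without overlap, which held for 18.3% of all rows tested untreated and 16.7% under GLUP. JUND, the JUN member least dependent on stimulation, was at 27.9, 28.3 and 23.9 FPKM in untreated WT and at 27.6, 31.2 and 30.9 FPKM with GLUP. The TEAD4KO libraries had 43.9, 44.7 and 38.8 FPKM of JUND when untreated, and 49.5, 46.7 and 41.2 FPKM under GLUP. Here too TEAD4KO lay above WT at each treatment without overlap.

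JUN was at 14.3, 14.3 and 11.6 FPKM in untreated WT, at 17.6, 17.0 and 21.7 FPKM in WT with GLUP, at 13.0, 13.99 and 12.2 FPKM in untreated TEAD4KO and at 19.0, 15.5 and 15.4 FPKM in TEAD4KO with GLUP. GLUP libraries lay above untreated ones within each genotype, and the genotypes overlapped. FOSL2 stayed between 8.62 and 11.6 FPKM in all 12 libraries, and no pair of groups was separated in the contrasts examined. FOSL1, a member often raised in invasive tumours, was the lowest in WT, with 1.55, 1.72 and 1.37 FPKM before and 2.11, 2.02 and 2.15 FPKM after GLUP. In untreated TEAD4KO it had 1.92, 1.04 and 2.80 FPKM, the widest relative spread of any member in a group. The GLUP libraries of TEAD4KO had 2.83, 3.23 and 3.18 FPKM, so the 2 groups only just separated.

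**Figure D1:**
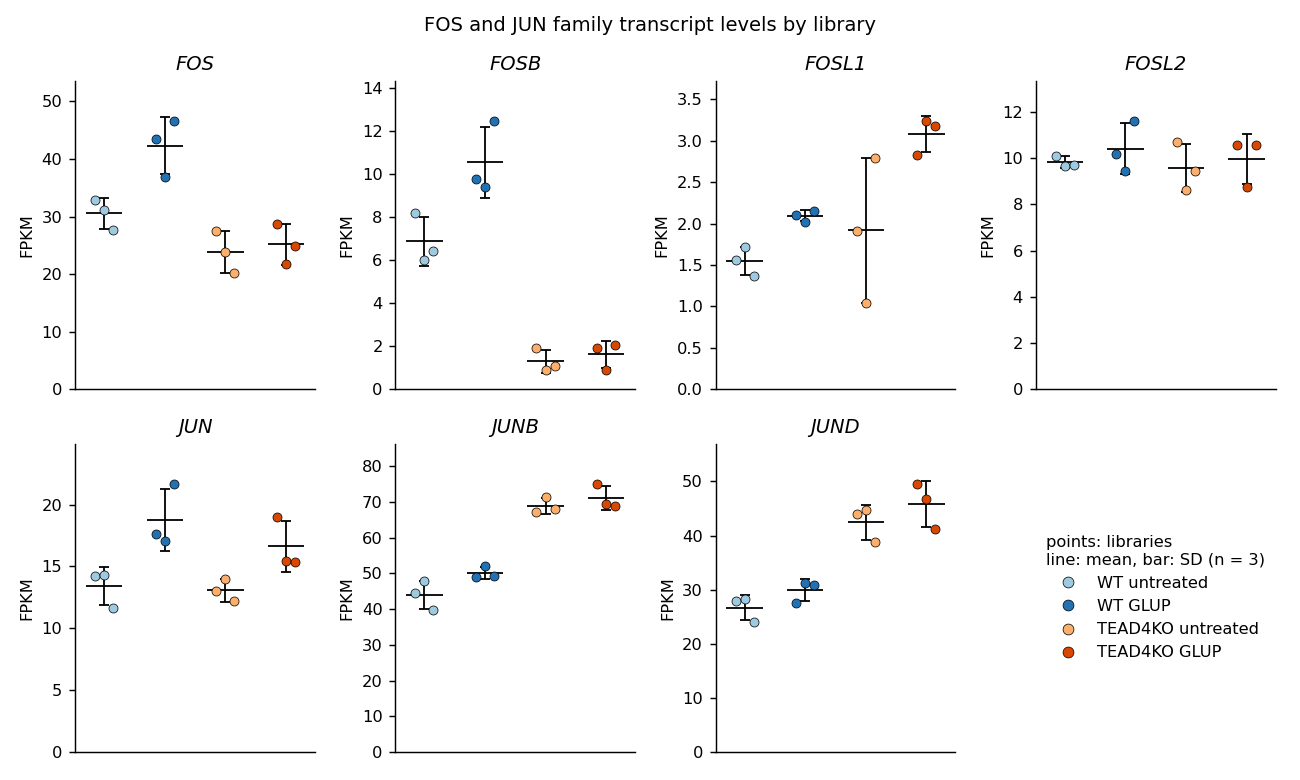
FPKM (linear axis from 0) of the 7 FOS and JUN family genes in each of the 12 libraries, by group, with the mean as a line and the SD as a bar (n = 3). FOSB sits between 0.903 and 2.06 FPKM in TEAD4KO libraries and between 6.03 and 12.5 FPKM in WT, JUNB and JUND are higher in TEAD4KO, and FOSL2 is level.

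In untreated WT the order of mean levels was JUNB, FOS, JUND, JUN, FOSL2, FOSB and FOSL1, and of the neighbours only FOS and JUND overlapped. With GLUP in WT, FOSB reached the level of FOSL2, at 10.5 ± 1.66 against 10.4 ± 1.10 FPKM (mean ± SD, n = 3), and the 2 overlapped. In untreated TEAD4KO, JUND lay between JUNB and FOS, and FOSB was last at 1.30 ± 0.531 FPKM, overlapping FOSL1 at 1.92 ± 0.878 FPKM. With GLUP in TEAD4KO, FOSB at 1.63 ± 0.628 FPKM was last and lay below FOSL1 at 3.08 ± 0.221 FPKM without overlap.

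Set against its paralogs, FOSB was at 19.3% to 26.8% of the FOS level in the 6 WT libraries and at 3.79% to 8.29% in the 6 TEAD4KO libraries. Of the summed FPKM of the FOS family, FOSB held 14.05% ± 1.57 (SD, n = 3) in untreated WT, 16.1% ± 1.12 in WT with GLUP, 3.47% ± 0.973 in untreated TEAD4KO and 4.01% ± 1.26 in TEAD4KO with GLUP. FOS kept the largest share, from 62.6% to 65.0% as group means, and FOSL2 held 20.2% and 15.9% in WT against 26.3% and 25.0% in TEAD4KO. The summed FOS family was at 48.8 ± 3.83 and 65.3 ± 7.54 FPKM in WT without and with GLUP, and at 36.6 ± 4.64 and 39.8 ± 4.75 FPKM in TEAD4KO. The summed JUN family went the other way, at 84.1 ± 7.78 and 98.7 ± 4.02 FPKM in WT and 124 ± 5.53 and 133 ± 9.27 FPKM in TEAD4KO. All these sums are as deposited. The correction for GC content and length described below lowered the log2 fold change between genotypes under GLUP. It went from 0.50 to 0.28 for JUNB and from 0.60 to 0.30 for JUND. JUNB made up 50.7% to 55.3% of the JUN sum in every group mean. These shares restate the FPKM above and were not tested apart from them.

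**Figure D2:**
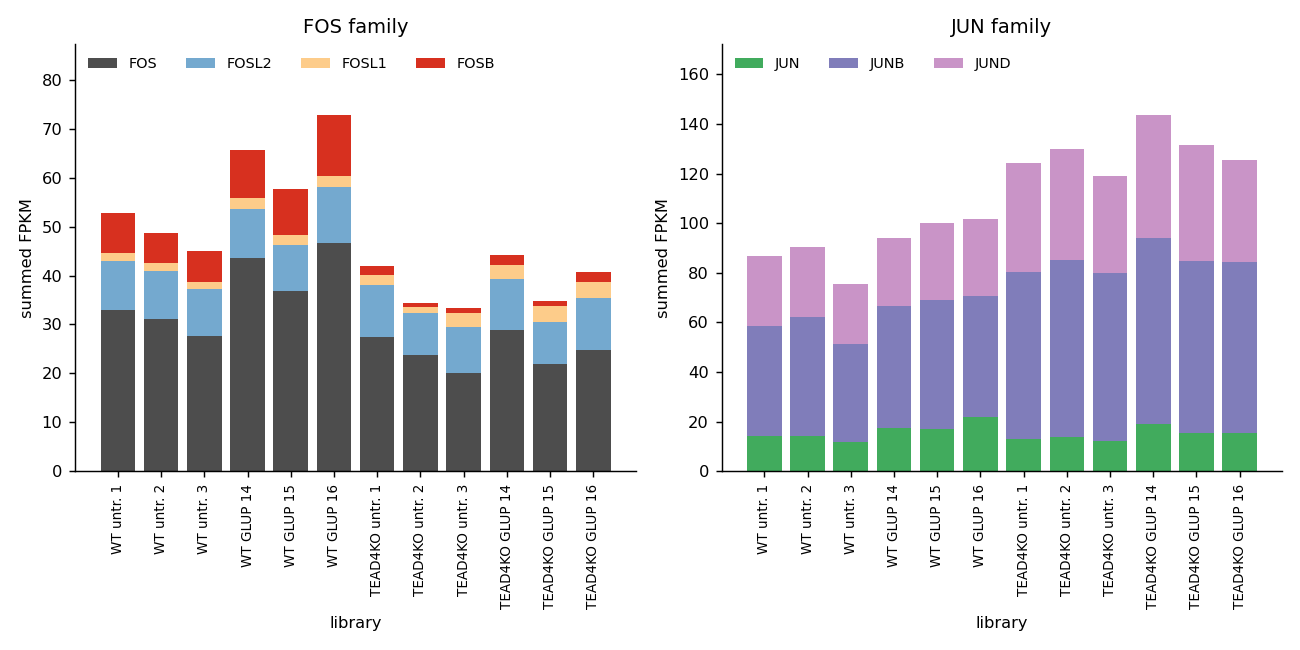
Summed FPKM of the FOS family (left) and the JUN family (right) in each library, stacked by gene, as deposited and not corrected for GC content and length. FOSB takes 12.4% to 17.1% of the FOS family in WT libraries and 2.62% to 5.07% in TEAD4KO libraries, and the JUN family sum is 75.4 to 102 FPKM in WT against 119 to 144 FPKM in TEAD4KO.

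In untreated cells, the contrast that singled out FOSB, its mean was 5.30-fold lower in TEAD4KO than in WT, with a log2 fold change of -1.79 ± 0.19 (SE) on the scale of log2(FPKM + 1), which understates the change of low genes. On that same scale FOS was at -0.36 ± 0.12, JUNB at 0.64 ± 0.07 and JUND at 0.65 ± 0.09. FOSL1 (0.15 ± 0.17), FOSL2 (-0.037 ± 0.098) and JUN (-0.032 ± 0.111) lay within their errors of 0. Of all 11225 rows tested, 5.42% passed in this contrast, 4.92% higher and 0.499% lower in TEAD4KO, and 0.0356% (4 rows) also differed by more than 2-fold. Groups did not overlap in 18.3% of rows on the higher side, where JUNB and JUND lay, and in 7.47% on the lower side, where FOSB and FOS lay. The other rows just inside that limit were EMC6 (1.07) and TPGS1 (1.03), and the nearest outside it were CEBPD (0.89) and H2AC25 (0.88). The balance of higher to lower rows depended on scaling, with 552 higher and 56 lower as deposited, 282 and 117 with median-ratio scaling, 357 and 246 with quantile normalization 177 and 140 as TPM and 137 and 86 after the correction for GC content and length described below. No p is given for the members here.

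Under GLUP, 4 of the 7 members passed between genotypes at an adjusted p under 0.05 (limma, Benjamini-Hochberg over all rows tested), against 5.84% of all rows. FOSB, 1 of the 4, had been chosen for its difference between the same genotype labels in untreated cells. The GLUP libraries did not enter that choice, but the untreated ones enter the shared estimate of spread. With only the compared groups in the fit, 4 members again passed, against 460 of 11225 rows. FOSB and FOS fell and JUNB and JUND rose in the libraries labelled TEAD4KO. FOSB had a mean 6.47-fold lower than in WT, with a log2 fold change of -2.16 ± 0.19 (SE, n = 3 per group, limma adjusted p = 0.000155), rank 2 among the falls of all rows. FOS had a mean 1.68-fold lower, at -0.73 ± 0.12 (limma adjusted p = 0.00471). JUNB was 1.42-fold higher in its mean, at 0.50 ± 0.07 (adjusted p = 0.00186), and JUND 1.53-fold higher, at 0.60 ± 0.09 (adjusted p = 0.00286). All 3 TEAD4KO libraries lay on one side of all 3 WT libraries for each of these genes, which on the lower side held for 12.9% of all rows. Lower values passed in 0.935% of all rows and higher values in 4.91%, that is 551 rows higher and 105 lower, against 481 and 145 with median-ratio scaling, 510 and 299 with quantile normalization 237 and 311 as TPM and 274 and 145 after the correction for GC content and length. Rescaling to TPM placed the median of all rows at -0.11 under GLUP and -0.080 untreated (-0.0039 and 0.023 as deposited). On that scale the 4 members passed in the same directions, with FOSB at -2.58, FOS at -0.86, JUNB at 0.39 and JUND at 0.49. FOSB was also the only member among the 6 rows (0.0535%) that passed and differed by more than 2-fold.

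The other 3 members did not pass under GLUP. FOSL1 had a log2 fold change of 0.40 ± 0.17 (limma adjusted p = 0.172) and its groups did not overlap, which held for 16.7% of all rows in the higher direction. It passed only when untreated TEAD4KO replicate 2, which enters the shared estimate of spread, was left out (adjusted p = 0.0443, range 0.0443 to 0.412 over the alternatives). JUN was at -0.16 ± 0.11 (adjusted p = 0.384) and FOSL2 at -0.057 ± 0.098 (adjusted p = 0.758), with overlapping groups. Without both TEAD4KO libraries that lay beside WT, 4 members again passed, with 2 libraries left in each TEAD4KO group. In that fit 3121 of 11225 rows passed, against 656 in the main fit, so the count stands against a larger background. There FOSB was at -2.28 (limma adjusted p = 3.27e-05), FOS at -0.72, JUNB at 0.52 and JUND at 0.67. The TEAD4KO libraries with and without GLUP carry the same genotype label, so a feature of the line other than TEAD4 would recur in both and cannot be told apart from the genotype.

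**Figure D3:**
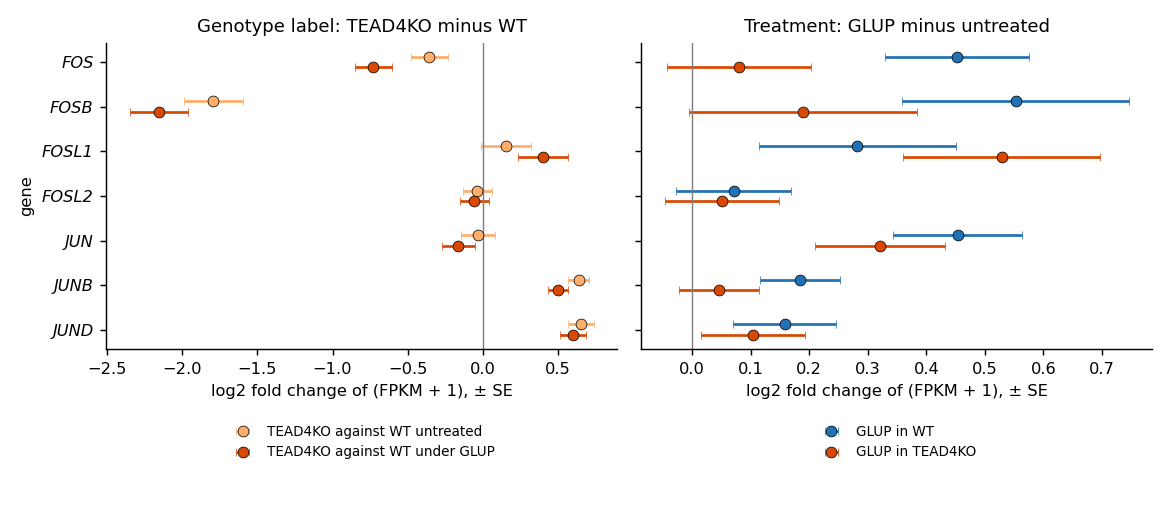
Log2 fold change of FPKM + 1 (point) with its SE (bar, from the 4-group limma model) for each member, TEAD4KO minus WT on the left and GLUP minus untreated on the right, on separate scales. FOSB is at -1.79 and -2.16 between genotypes, JUNB and JUND are between 0.50 and 0.65, and all 14 GLUP values lie above 0, from 0.046 to 0.55. Of all 11225 rows, 6047 lie above 0 in WT and 4839 in TEAD4KO.

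A property of the libraries moved with the genotype contrast. Across 11077 rows with a reference transcript, the TEAD4KO against WT difference under GLUP had a Spearman correlation of 0.189 with GC content and -0.449 with transcript length, and in untreated cells of 0.286 and -0.480, so short and GC-rich transcripts tended to be higher in TEAD4KO libraries. JUNB (64.9% GC, 1830 bases) and JUND (69.9% GC, 1929 bases) lie at the 96.3 and 99.7 percentiles of GC content and the 13.0 and 14.7 percentiles of length. After each library was corrected for these trends, JUNB under GLUP was at 0.28 ± 0.06 (SE, limma adjusted p = 0.0256) and JUND at 0.30 ± 0.06 (adjusted p = 0.0280), both still passed and both smaller by more than 1.5 times. In untreated cells the corrected values were 0.38 and 0.29. FOSB under GLUP stayed at -2.15 ± 0.16 (adjusted p = 6.29e-05) and FOS at -0.80 ± 0.12 (adjusted p = 0.00585). After correction 2.44% of all rows passed as higher and 1.29% as lower. What part of the JUNB and JUND differences belongs to these properties was not tested beyond this correction.

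**Figure D4:**
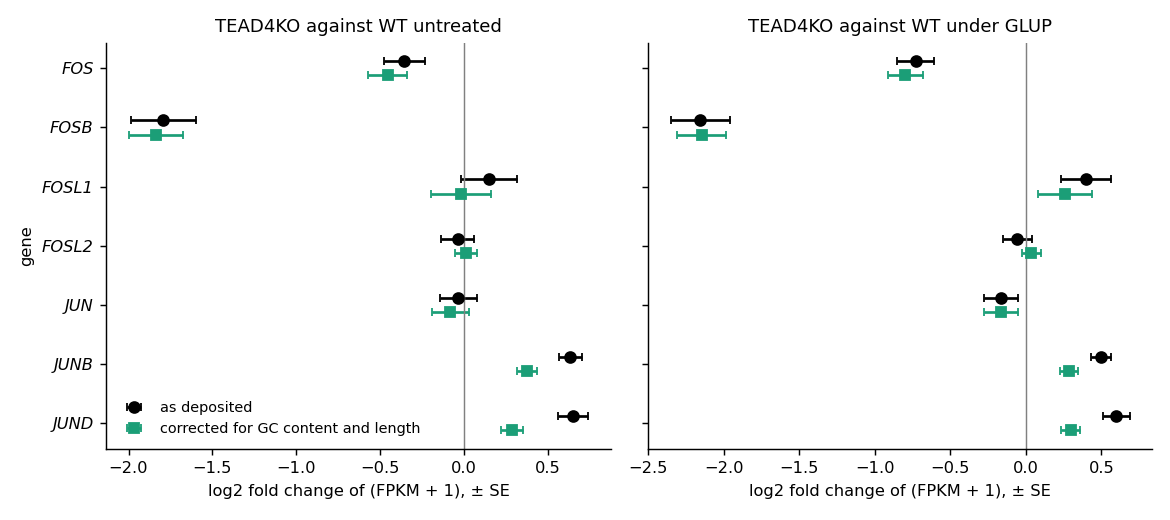
Log2 fold change of FPKM + 1 (TEAD4KO minus WT) with its SE for each member, as deposited (circles) and after correction for GC content and transcript length (squares), in untreated and GLUP libraries. JUNB and JUND move toward 0, to 0.28 and 0.30 under GLUP, while FOSB stays at -2.15.

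The study asked what GLUP does in cells with and without TEAD4. In WT all 7 members had higher means with GLUP, and in libraries labelled TEAD4KO all 7 again, but 0 of 7 passed in either contrast (limma, with 4 and 2 members at an unadjusted p under 0.05). Of all 11225 rows, 6047 were higher with GLUP in WT and 4839 in TEAD4KO. The background was low as well: 0.00891% of all rows passed in WT and 0.0445% in TEAD4KO, with 3.43% and 6.38% at an unadjusted p under 0.05. The untreated libraries that singled out FOSB also serve as the baseline here, which touches its GLUP values.

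In WT, FOS was at 0.45 ± 0.12 (log2 fold change ± SE, limma adjusted p = 0.666), JUN at 0.45 ± 0.11 (adjusted p = 0.478) and FOSB at 0.55 ± 0.19 (adjusted p = 0.999). The means of FOS and FOSB were 38.4% and 53.4% above untreated. JUNB (0.18 ± 0.07), FOSL1 (0.28 ± 0.17), JUND (0.16 ± 0.09) and FOSL2 (0.071 ± 0.098) were also above 0. GLUP libraries lay above all untreated ones for FOS, FOSB, FOSL1, JUN and JUNB, 5 of 7 members, and this held for 10.2% of all rows. For FOSL2 the sign turned without WT GLUP replicate 16, to -0.0033.

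In libraries labelled TEAD4KO the largest values were those of FOSL1 (0.53 ± 0.17, limma adjusted p = 0.564) and JUN (0.32 ± 0.11, adjusted p = 0.634), the 2 members whose groups did not overlap, against 2.85% of all rows. FOSB was at 0.19 ± 0.19, JUND at 0.10 ± 0.09, FOS at 0.080 ± 0.123, FOSL2 at 0.051 ± 0.098 and JUNB at 0.046 ± 0.068. FOS turned below 0 without untreated replicate 3 (-0.030) or GLUP replicate 14 (-0.018), and FOSL2 without untreated replicate 2 (-0.016).

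Averaged over both genotypes, 0 of 7 members passed (limma), with 5 at an unadjusted p under 0.05, against 0.258% of all rows passed and 7.14% at an unadjusted p under 0.05. JUN came nearest, at 0.39 ± 0.08 (limma adjusted p = 0.0660, range 0.0478 to 0.193 over the alternatives), and it passed after correction for GC content and length (0.40 ± 0.08, adjusted p = 0.0478). FOSL1 was at 0.41 ± 0.12 (adjusted p = 0.333) and passed only without untreated TEAD4KO replicate 3 (0.51, adjusted p = 0.0487). FOSB was at 0.37 ± 0.14, FOS at 0.27 ± 0.09, JUND at 0.13 ± 0.06, JUNB at 0.12 ± 0.05 and FOSL2 at 0.061 ± 0.069.

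Whether the GLUP difference depended on genotype was tested as an interaction, and 0 of 7 members passed (limma), with 0 at an unadjusted p under 0.05. Of all rows 0.00891% passed and 2.53% had an unadjusted p under 0.05. FOS had the lowest p, with a difference of -0.37 ± 0.17 between the GLUP effects (TEAD4KO minus WT, limma adjusted p = 1.000). FOSB was at -0.36 ± 0.27, FOSL1 at 0.25 ± 0.24, JUNB at -0.14 ± 0.10, JUN at -0.13 ± 0.16, JUND at -0.054 ± 0.125 and FOSL2 at -0.020 ± 0.138. The 4 pairwise contrasts share groups, so their values are set side by side and not correlated.

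The genes around AP-1 were taken as 7 lists of 87 genes, of which 62 had a mean of at least 1 FPKM. Under GLUP, 6 of these 62 passed between genotypes, 3 higher and 3 lower in TEAD4KO (limma), which is 9.68% against 5.84% of all rows, and 17 (27.4%) had an unadjusted p under 0.05 against 23.9% of all rows. In untreated cells 4 passed, all higher, which is 6.45% against 5.42%, and 16 (25.8%) had an unadjusted p under 0.05 against 21.7%. These shares are near those of all rows. The single list counts below are read against the same shares. Of the other immediate early genes, 12 of 21 were tested. KLF4, a zinc finger factor of epithelial differentiation, was at 3.79, 4.17 and 4.40 FPKM in WT with GLUP and at 2.70, 2.25 and 2.82 FPKM in TEAD4KO with GLUP. It fell by 0.51 ± 0.09 on the log2 scale (limma adjusted p = 0.00515), without overlap. The stress-responsive survival gene IER3 rose under GLUP (0.34 ± 0.07, adjusted p = 0.0166) and in untreated TEAD4KO (0.33 ± 0.07, adjusted p = 0.0202), and IER5 rose in untreated cells (0.28 ± 0.07, adjusted p = 0.0442). The median of this list was 0.14 under GLUP and 0.099 untreated, against -0.0039 and 0.023 over all rows.

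Of 18 textbook AP-1 target genes only 8 were tested, since MMP1, MMP3, MMP9, MMP10, MMP13, IL6, IL11, CXCL8, IVL and SPRR1B had means below 1 FPKM. CCND1, which drives entry into S phase, was at 81.2, 78.5 and 79.2 FPKM in WT with GLUP and at 63.1, 58.4 and 70.3 FPKM in TEAD4KO with GLUP. It fell by 0.32 ± 0.09 (log2, limma adjusted p = 0.0487). TIMP1, an inhibitor of matrix metalloproteinases, rose by 0.31 ± 0.08 under GLUP (adjusted p = 0.0363) and by 0.30 ± 0.08 untreated (adjusted p = 0.0399). The list median was 0.056 under GLUP and 0.036 untreated, close to that of all rows.

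Of the upstream and partner lists, 0 of 8 bZIP partners passed in either genotype contrast (limma). At an unadjusted p under 0.05 there were 2 under GLUP and 3 untreated, against 23.9% and 21.7% of all rows. Under GLUP the largest values were BATF3 (0.40 ± 0.12, adjusted p = 0.0705) and MAFF (0.32 ± 0.12, adjusted p = 0.125), and untreated MAFF (0.38 ± 0.12, adjusted p = 0.0753) and JDP2 (0.34 ± 0.22, adjusted p = 0.387). Of 10 kinases that act on FOS and JUN 0 passed (limma, 0 under GLUP and 1 untreated at an unadjusted p under 0.05). MAPK9 was at -0.14 ± 0.09 under GLUP, and MAPK3 (0.28 ± 0.13) and RPS6KA3 (-0.20 ± 0.11) led untreated. Transcript level is no measure of kinase activity.

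Of 7 factors that act at the FOS promoter 0 passed (limma, 3 under GLUP and 0 untreated at an unadjusted p under 0.05). MRTFB, a serum response factor co-activator, was at -0.33 ± 0.09 (adjusted p = 0.0539) and CREB1, which binds the cAMP response element, at -0.26 ± 0.10 (adjusted p = 0.135) under GLUP. Untreated, ELK4 was at -0.18 ± 0.13 and CREB1 at -0.13 ± 0.10. Of 9 genes for turnover of FOS and JUN protein or mRNA, HNRNPD, which encodes the mRNA-binding protein AUF1, fell by 0.27 ± 0.07 under GLUP (adjusted p = 0.0476). Untreated, 0 passed (limma, 0 at an unadjusted p under 0.05), with FBXW7 at -0.13 ± 0.10 and HNRNPD at -0.12 ± 0.07.

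The heat shock genes served as a stress list, and all 8 were tested. HSPB1, a small heat shock protein, rose in TEAD4KO under GLUP (0.54 ± 0.10, limma adjusted p = 0.00890) and untreated (0.49 ± 0.10, adjusted p = 0.0162). Its levels were 212, 215 and 209 FPKM in WT with GLUP and 365, 309 and 262 FPKM in TEAD4KO with GLUP. The list median was 0.097 under GLUP and 0.049 untreated. After correction for GC content and length, the calls of TIMP1, IER3 and HSPB1 were lost in both genotype contrasts (adjusted p from 0.0605 to 0.321) and that of HNRNPD under GLUP (adjusted p = 0.0810), while KLF4 (0.00458), CCND1 (0.0354) and IER5 untreated (0.0431) kept theirs. The same correction added calls for IER5 (0.30 ± 0.06, adjusted p = 0.0261) and 1 further immediate early gene, higher under GLUP, and for CCND1 (-0.28 ± 0.06, adjusted p = 0.0412) and the chaperone regulator BAG3 (-0.24 ± 0.05, adjusted p = 0.0491), lower in untreated TEAD4KO. The calls of IER5, TIMP1, HNRNPD and CCND1 were also lost in 7 to 9 of the 12 fits that left out 1 library, and those of KLF4 and of HSPB1 under GLUP in 0. IER3 lost its call under GLUP without any of the WT GLUP libraries or TEAD4KO GLUP replicate 14 (adjusted p from 0.0553 to 0.0796), and in untreated cells without WT replicate 1 (0.0828) or 3 (0.117). HSPB1 lost it in untreated cells without WT replicate 3 (adjusted p = 0.0974) or TEAD4KO replicate 2 (0.0712).

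With GLUP against untreated, 0 of the 62 list genes passed in WT, in TEAD4KO, over both genotypes or in the interaction (limma). At an unadjusted p under 0.05 there were 15 (24.2%, against 3.43% of all rows), 7 (11.3%, against 6.38%), 17 (27.4%, against 7.14%) and 1 (1.61%, against 2.53%). The comparison over both genotypes uses the libraries of the first 2. After correction for GC content and length, CD44, a hyaluronan receptor (0.20 ± 0.04, limma adjusted p = 0.0429), and IER3 (0.30 ± 0.05, adjusted p = 0.0239) passed as higher over both genotypes. Over both genotypes the early response gene IER2 was at 0.42 ± 0.09 (adjusted p = 0.122) and EGR1, a zinc finger factor induced alongside FOS, at 0.35 ± 0.11 (adjusted p = 0.367). The cytokine LIF was at 0.35 ± 0.11, the protease PLAU at 0.24 ± 0.09, MAFF at 0.29 ± 0.08 and BATF3 at -0.25 ± 0.09, all with adjusted p from 0.308 to 0.565. MAPK7 (-0.10 ± 0.08), MAPK8 (0.094 ± 0.076), ELK3 (0.20 ± 0.08), ELK4 (0.14 ± 0.09), FBXW7 (-0.13 ± 0.07) and ZFP36L1 (0.11 ± 0.06) led the other lists. The heat shock genes were lower with GLUP in 8 of 8, against 5877 of all 11225 rows, with a median of -0.12 against -0.0040 over all rows. They were led by HSPA1B (-0.15 ± 0.06, limma adjusted p = 0.580) and HSPA8 (-0.15 ± 0.07, adjusted p = 0.693).

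Within single genotypes the leading list genes under GLUP were largely these. In WT, IER2 was at 0.45 ± 0.13, EGR1 at 0.41 ± 0.15, LIF at 0.35 ± 0.15, MAFF at 0.32 ± 0.12, BATF3 at -0.30 ± 0.12, PLAU at 0.29 ± 0.13, ELK3 at 0.20 ± 0.11, HSPA1B at -0.19 ± 0.09 and HSPA1A at -0.19 ± 0.08, all with a limma adjusted p of 0.869 or more. ZFP36L1 (0.18 ± 0.09), HNRNPD (0.17 ± 0.07), MRTFB (0.12 ± 0.09), MAPK3 (0.10 ± 0.13) and MAP2K4 (-0.10 ± 0.07) led the remaining lists. In TEAD4KO, IER2 was at 0.38 ± 0.13, LIF at 0.35 ± 0.15, EGR1 at 0.30 ± 0.15, MAFF at 0.26 ± 0.12, BATF3 at -0.19 ± 0.12 and ELK3 at 0.19 ± 0.11, with adjusted p of 0.648 or more. MAPK3 (-0.17 ± 0.13), ELK4 (0.16 ± 0.13), COP1 (-0.16 ± 0.09), FBXW7 (-0.14 ± 0.10), MAPK7 (-0.13 ± 0.11), HSPA8 (-0.12 ± 0.10) and HSPA1B (-0.12 ± 0.09) followed. None of them passed.

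In the interaction KLF4 had the lowest p of the list genes (-0.33 ± 0.13, limma adjusted p = 1.000). PLAUR was at -0.28 ± 0.16 among the AP-1 targets. The leading pairs of the other lists were MAPK3 (-0.28 ± 0.18) and RPS6KA3 (0.19 ± 0.16), MRTFB (-0.20 ± 0.13) and ELK1 (0.14 ± 0.11), COP1 (-0.15 ± 0.13) and HNRNPD (-0.14 ± 0.10), BATF3 (0.11 ± 0.17) and JDP2 (-0.11 ± 0.31), and BAG3 (0.18 ± 0.09) and HSPH1 (0.11 ± 0.09). DUSP1, a phosphatase of MAP kinases, was at 0.12 ± 0.14.

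**Figure D5:**
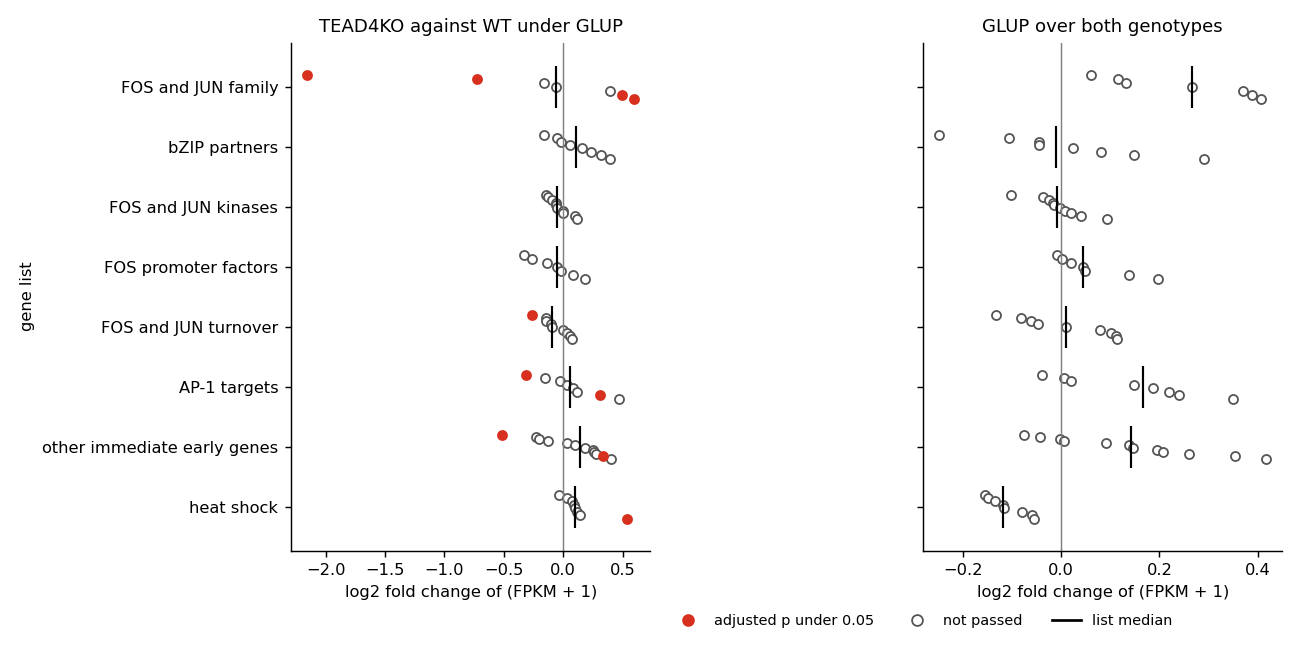
Log2 fold change of FPKM + 1 for each tested gene of the FOS and JUN family and of 7 related lists, for TEAD4KO minus WT under GLUP (left) and GLUP minus untreated over both genotypes (right), with the list median as a line. Filled points passed at an adjusted p under 0.05: 4 family members and 6 list genes on the left, 0 on the right.

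Which rows followed FOSB most closely was ranked by Pearson's r of log2(FPKM + 1) over the 12 libraries, which share the genotype difference, and is given as a description. The splicing factor gene HNRNPH1 came first (r = 0.969), followed by VANGL2 (0.961), SMC1A (0.959), R3HDM1 (0.957) and TEAD2 (0.956), a paralog of TEAD4. Their differences were small beside that of FOSB: TEAD2 had means of 13.3 and 14.2 FPKM in WT and 9.16 and 10.2 FPKM in TEAD4KO, untreated and with GLUP. HNRNPH1 had means of 532 and 569 FPKM in WT and 412 and 429 FPKM in TEAD4KO. After group means were removed, the closest rows were LYSMD4 (0.971), RBFOX2 (0.968), SH3RF1 (0.968), GANAB (0.967) and ITGA5 (0.962), none of which was among the first 5.

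Among the members themselves, over the same 12 libraries, JUNB and JUND had r = 0.978, FOS and FOSB 0.904, FOSB and JUNB -0.866 and FOSB and JUND -0.852. With group means removed, FOSB and FOSL2 had r = 0.934, JUN and FOS 0.746, JUNB and JUND 0.740 and FOS and FOSB 0.729, while FOSB and JUNB had -0.106. The opposite levels of FOSB and JUNB were seen between groups, and with 12 libraries the value within groups is imprecise. All these libraries share their normalization, and no p is given.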

How the data were processed

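The 12 HGC-27 RNA samples (4 groups of 3) were grouped by GEO's labels and sample titles. The deposited FPKM values fill a column for each sample and a row for each Ensembl gene. Per the submitters' processing notes, HISAT2, Cufflinks, RSEM and hg19 were named, without roles. Versions and the annotation release are not given in the sources used here, and the methods name an online cloud platform. FPKM divides by the mapped total and the transcript length, so a change in a few abundant genes shifts the others and a GC or length bias between libraries stays in the values. Depth is unknown and reads could not be recovered, so precision comes from the spread between libraries only.

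Values were analysed as log2(FPKM + 1), with a pseudocount of 1, and the 11225 rows averaging 1 FPKM or more were tested. In limma 3.58.1 (R 4.3.3), lmFit and eBayes with trend took all 12 samples and 4 groups without covariates. Tests were two-sided, with Benjamini-Hochberg adjustment over all rows within each contrast. A row passed at an adjusted p under 0.05. A permutation of 3 against 3 cannot give a p below 0.1 and was not used. GENCODE release 44, lifted to GRCh37, gave coordinates, transcript length and GC content, and RefSeq gave the promoters. The correction for GC content and length took from each library its spline trends (5 degrees of freedom each). All 7 members were named throughout, with every list gene that passed (up to 4 per list and contrast) or otherwise the 2 with the largest absolute log2 fold change, and the 5 rows closest to FOSB by each measure. Some list genes that this rule names are not reported here. The members, lists and tests were chosen with earlier results of these data known.

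Alternatives were a pseudocount of 0.1, no filter, a mean of at least 5 FPKM, median-ratio scaling, quantile normalization, rescaling to TPM, eBayes without trend, array weights, only the groups compared, the correction above, the replicate number as a block, a fold limit of 2 and leaving out each sample. Leaving out both TEAD4KO libraries nearest WT was added after seeing the data. Pairing by the replicate numbers in the titles was checked by correlating deviations from group means. Numbers 14, 15 and 16 gave 0.106, 0.152 and 0.336 between genotypes and so met the limit of 0.1 for pairing, as did 2 of the 6 combinations of unlike numbers (highest 0.134), so the numbers are weak evidence of pairing. Numbers 1, 2 and 3 gave -0.0569, 0.203 and -0.0149 and did not. The block entered only the alternative fits. The model was tested on simulated data.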

Additional observations from a re-analysis of the deposited data

How the results depend on the processing

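The FOSB difference between genotypes under GLUP passed in all 25 alternatives, from -2.69 to -1.94 on the log2 scale (limma adjusted p from 1.23e-05 to 0.00657), and FOS (adjusted p from 0.00104 to 0.0313), JUNB (0.000399 to 0.0340) and JUND (0.000322 to 0.0325) also passed in all 25. Of the 7 members 4 passed under GLUP, 4 to 5 when 1 library was left out and 1 (FOSB) with the fold limit of 2. Of all 11225 rows, 656 passed in the main fit and 196 to 1952 when 1 library was left out. With the replicate block, 4 members passed (FOSB -2.16, limma adjusted p = 1.23e-05), and again with the GC and length correction added, and the pairing changed no member's call. With the block 1064 of all rows passed under GLUP, and 540 with the correction added. In untreated cells FOSB was at -2.37 with a pseudocount of 0.1, at -2.23 as TPM and at -1.97 without both TEAD4KO libraries nearest WT. For GLUP over both genotypes 1 member (JUN) passed after the GC and length correction, and 0 to 1 when 1 library was left out. No member passed for GLUP in either genotype or in the interaction under the alternatives run. Calls of list genes over the 4 pairwise contrasts, counted once per gene and contrast, numbered 10. They numbered 5 without a filter, 6 without trend, 22 with array weights and 28 without both TEAD4KO libraries nearest WT. Leaving out 1 library gave 3 to 17. All rows passed between genotypes under GLUP rose from 656 to 2487 with array weights and to 3121 without both libraries. In untreated cells they rose from 608 to 694 and to 2231.

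Signs turned only for small values that did not pass or were not tested. For FOSL2 these were, after the GC and length correction with or without the block, 0.037 under GLUP and 0.016 untreated, and in the interaction 0.016 (median-ratio scaling), 0.0036 (quantile), 0.042 (array weights), 0.021 (GC and length) and 0.013 (both libraries out). FOSL1 untreated came to -0.016 after the GC and length correction, with or without the block. In the interaction JUN was at 0.00091 with array weights, and JUND at 0.039 with array weights, 0.0096 after the GC and length correction and 0.044 with both libraries out. When 1 library was left out, FOSL2 ranged from -0.119 to 0.0261 between genotypes under GLUP, from -0.111 to 0.0293 untreated, from -0.0033 to 0.133 for GLUP in WT, from -0.0155 to 0.134 in TEAD4KO and from -0.0862 to 0.0630 in the interaction. The same range was -0.0299 to 0.183 for FOS with GLUP in TEAD4KO, -0.117 to 0.0196 for JUND in the interaction, and in untreated cells -0.0608 to 0.387 for FOSL1 and -0.124 to 0.0160 for JUN. Except where a fit dropped libraries or rows, the cause was not tested. Unknown depth, 3 libraries per group and a single labelled line limit all values.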
